A study of Arabidopsis thaliana with 434 samples.

Results

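ANAC059 (locus AT3G29035) was 1 of the 49 NAC genes whose transcripts were counted in ageing Arabidopsis thaliana leaves, and it was picked out by the locus in its probe name. ANAC059 encodes ORS1, the ORE1 SISTER1 protein, a close relative of ANAC092 (ORE1). NAC proteins are plant transcription factors that bind DNA through a conserved domain at their amino end, and many of them change in abundance as a leaf ages. ORS1 and ORE1 are both known to promote leaf senescence, the ordered breakdown of chlorophyll and proteins that precedes leaf death, and ORS1 is known to respond to hydrogen peroxide.

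The transcripts were counted with the NanoString nCounter, which counts labelled probes bound to RNA without amplification, in 434 leaf samples taken at leaf ages of 14, 18, 22 and 26 d from plants grown in long days. Wild type was the Columbia ecotype (Col), sampled 10 times at 14 d and 8 times at the other ages. Each of 49 T-DNA insertion lines from the SALK, SAIL or GABI-KAT collections, all in the Columbia background and each named after its NAC gene, had 2 samples per age, or 4 for anac092. Titles gave each sample 1 of the letters A to D beside a number. Wild type stood under every letter. The sample values of a line are given beside wild type of its own letter. The fitted log2 differences take the letter as a covariate, and because anac092 stood under both A and B, its samples enter the letter estimate too. For lines of letters A and B a fitted difference therefore departs from the plain own-letter contrast, which a fit without anac092 gave. At 14 d the own-letter contrast less the fitted difference was 0.17 log2 units for letter A and -0.30 for letter B. These departures were smaller at the later ages. The labels name no second insertion for a gene, and the place of the insertions and probes was not given in the sources used here. Whether the samples of a group are separate plants is not in the labels, and p-values therefore rest on sample-to-sample spread that could be technical. Because these are whole leaves, fewer cells holding a transcript and less transcript per cell cannot be told apart.

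The depth of a sample lay between 31613 and 687229 counts (median 225519). ANAC059 stood above the detection limit of 12.6 raw counts in all 434 samples, with 33 to 3604 raw counts. Values below are normalised counts: raw counts over the mean of 4 reference genes of the same sample (UBQ10, TUB2, ACT7 and ACT2), brought to a common scale. UBQ10 made up 80.6% of those reference counts (median over samples). The reference mean differed by age, with a median of 60701.5 raw counts at 14 d, 29153 at 18 d, 37647 at 22 d and 40149 at 26 d. The probe set held no gene that marks leaf cells as such, so the labelled tissue could not be checked. Of 7 NAC genes that mark vascular cells, none was listed at 0 in any wild-type age group, but only 5 had a mean raw count above the detection limit. The summed normalised count of the 7 had a median of 460.3 at 14 d (359 to 680), 381 at 18 d (240.3 to 469.5), 393 at 22 d (283 to 948) and 620.4 at 26 d (362 to 908). ANAC104 had the largest counts of these genes, with a wild-type mean of 260 at 14 d and 561 at 26 d. Between these ages ANAC007 fell from 76.3 to 27.6, ANAC010 from 32.3 to 8.33, ANAC045 from 45.3 to 6.15 and ANAC101 from 38.4 to 16.9.

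In wild type, ANAC059 rose most between 14 and 18 d, and later steps were smaller. At 14 d the lowest, median and highest of 10 samples were 34.9, 310.0 and 627 normalised counts (mean 306 ± 159, SD). At 18 d the 8 samples gave 865, 1064 and 1738 (mean 1194 ± 346, SD). At 22 d they gave 1141, 1542 and 2132 (mean 1587 ± 299, SD), and at 26 d 1367, 1894 and 2326 (mean 1860 ± 313, SD). Every sample at 18 d or later lay above every sample at 14 d, whereas the samples of each later age overlapped those of the next.

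**Figure D1:**
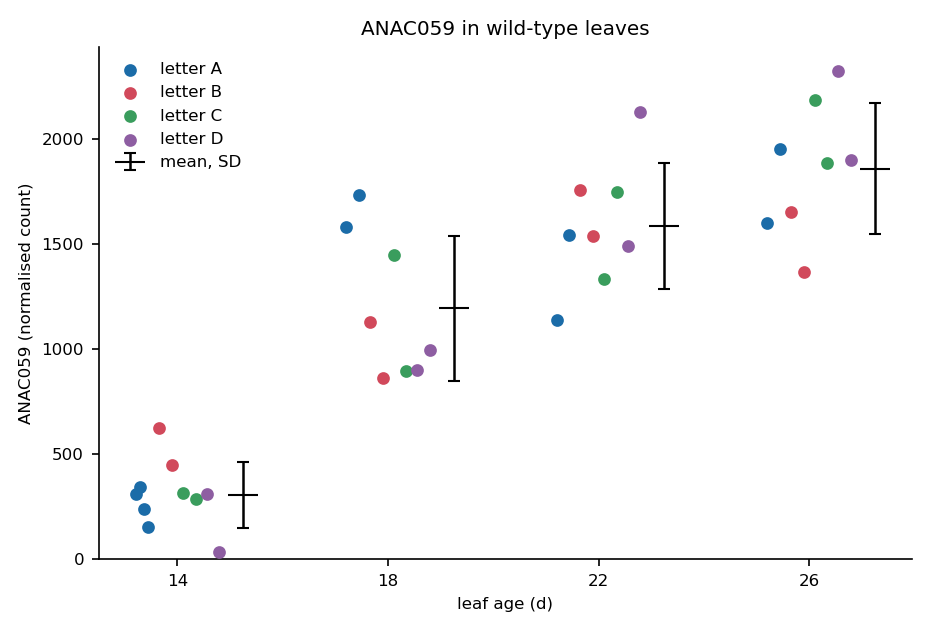
Normalised ANAC059 counts (y axis) in each wild-type sample against leaf age in days (x axis), coloured by title letter; black bars give the mean and SD over 10, 8, 8 and 8 samples. The highest sample at 14 d (627) lies below the lowest at 18 d (865), and the means rise from 306 to 1194, 1587 and 1860.

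In the quasi-likelihood test of edgeR, adjusted over 47 genes by Benjamini-Hochberg, the 18 d level was 4.08-fold that at 14 d (log2 2.03, SE 0.19, adjusted p = 2.8e-20). At that age 25.5% of the 47 genes were called higher than at 14 d and 12.8% lower. The log2 change from 14 d was 2.47 at 22 d (SE 0.19, adjusted p = 1.9e-27; 78.7% of genes called higher and 14.9% lower) and 2.69 at 26 d (SE 0.19, adjusted p = 6.7e-31), where 83.0% of genes were called higher and 14.9% lower. From 18 to 22 d the change was 0.44 (SE 0.19, adjusted p = 0.031), with 68.1% of genes called higher and 10.6% lower. That step depended on the scaling: it was -0.00167 with TMM and -0.0451 with DESeq2, both taken over the NAC genes. From 22 to 26 d the change was 0.23 (95% interval -0.15 to 0.60, edgeR adjusted p = 0.298), with 23.4% of genes called higher and 4.26% lower, so these neighbouring ages did not differ beyond their spread. The order of the levels was therefore 14 d below 18 d under each scaling, with the order of the 3 later ages less firm.

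The ANAC059 rise was not shared evenly by the letters. From 14 to 18 d the mean log2 change was 2.73 for letter A and 0.90 for letter B. It was 1.93 for letter C and 3.17 for letter D. Letter B had the highest wild-type level at 14 d, at 627 and 448 normalised counts, and letter D held the lowest sample. That sample, D2, had 34.9 normalised ANAC059 counts (33 raw) against 152 to 627 in the other 9, and it was the lowest of all 110 samples of this age in any genotype, the next lying at 115. D2 was also below the other wild-type samples for ANAC092 (19.0 against 347 to 1150 normalised counts), for ANAC055, a gene of jasmonate and abscisic acid responses (7.40 against 23.7 to 152), and for ANAC029, the senescence regulator NAP (663 against 1508 to 2855). Its total count, 211224, lay within the 202316 to 640466 of the other 9, and 10 of the 47 genes were lowest and 6 highest in it. Those highest were the vascular genes ANAC010 (58.1 against 17.8 to 39.1 normalised counts) and ANAC101 (58.1 against 23.9 to 50.8), with ANAC028, ANAC035, ANAC057 and ANAC096. The part of vascular tissue in the low ANAC059 count of D2 was not tested. Its part in the wild-type rise shows in the change without it, which was 1.82, against 2.03 with it.

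Set beside the other NAC genes, ANAC059 had the largest log2 change from 14 to 18 d of the 47 genes, and it ranked first under each of the 6 scalings and in each of 34 fits that left out 1 wild-type sample. The next was ANAC055, at 1.60 (adjusted p = 1.3e-04), and the difference between these genes was not tested. By 26 d ANAC059 ranked 6. ANAC087, a regulator of developmental cell death, ranked first there at 4.29, but its change at 18 d was 0.54 (adjusted p = 0.332). The ANAC059 change at 18 d was 75.3% of its change at 26 d. That share depended on the scaling, at 100.1% with TMM, 104.7% with DESeq2 and 53.2% with the positive control probes. Among the 26 genes with a log2 rise above 1 at 26 d the median of this share was 16.1%, and only ANAC048, at 91.3%, had a larger one. It was 42.3% for ANAC092, 28.7% for ANAC079 and 7.70% for ANAC047.

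**Figure D2:**
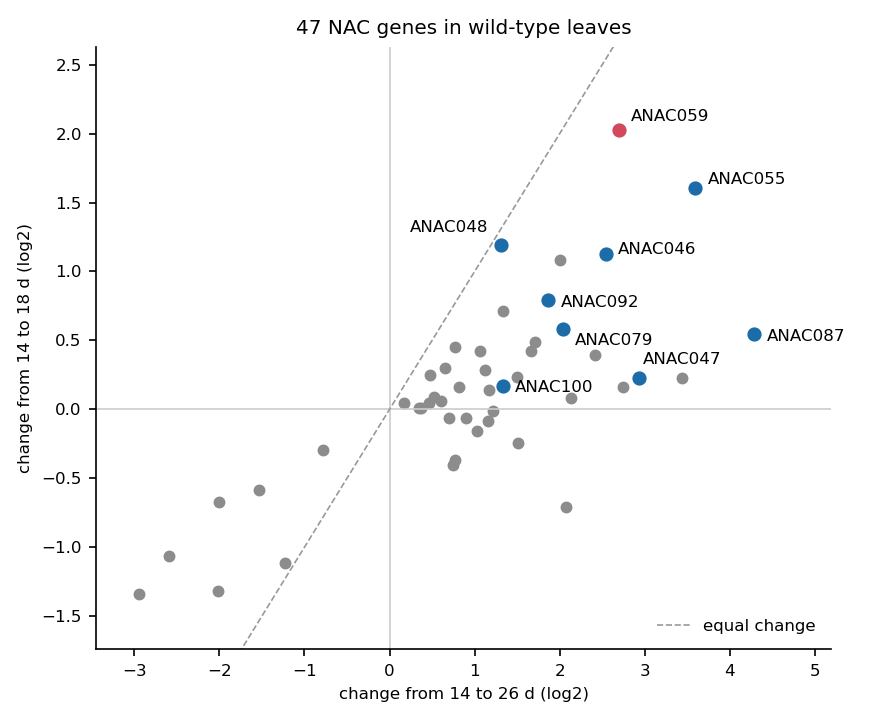
Log2 change from 14 to 18 d (y axis) against log2 change from 14 to 26 d (x axis) for the 47 tested NAC genes in wild type; ANAC059 is red, the other named genes are blue, and the dashed line marks equal change. ANAC059 stands highest at 2.03 on the y axis, while ANAC087 lies farthest right at 4.29 with 0.54 at 18 d.

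The median of all genes also moved, by 0.14 at 18 d and 1.12 at 26 d, or by -0.70 and 0.58 when scaled to the positive control probes. With the reference genes ANAC059 stood 1.89 above the median gene at 18 d and 1.57 above it at 26 d. With TMM these distances were 1.94 and 1.64, and with the positive control probes, which are spiked in at fixed amounts, 1.86 and 1.61. The fitted rises themselves ranged more widely. At 18 d the log2 rise ran from 1.17 with the positive control probes to 2.26 with limma on the authors' values, and at 26 d from 1.80 with DESeq2 to 2.94 with limma.

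Other genes of leaf ageing were taken as lists. Over all 47 genes 25.5% were called higher and 12.8% lower at 18 d, and 83.0% higher and 14.9% lower at 26 d. The counts below are to be read beside these shares. Of 12 NAC genes known to promote senescence, 4 were called higher at 18 d and 12 at 26 d, with a median log2 change of 0.41 and 1.76 against 0.14 and 1.12 over all genes. Of ANAC042 and ANAC083, which delay senescence, 1 was called higher at 18 d and both at 26 d. Of ANAC017, ANAC082 and ANAC090, together known as a trio that delays senescence, 0 were called higher at 18 d with edgeR and 3 at 26 d. Of the 5 vascular genes tested, 4 were called lower at 18 d and 4 lower and 1 higher at 26 d. The part of a changing share of vascular tissue in the ANAC059 rise was not tested.

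The nearest relatives of ANAC059 in the probe set were ANAC092, ANAC079 and ANAC100. Between 14 and 18 d ANAC092 changed by 0.79 (adjusted p = 0.038) and ANAC079 by 0.58 (adjusted p = 0.012), and ANAC100 by 0.17 (adjusted p = 0.563), all log2 by edgeR. Ratios of ANAC059 to each relative within the same sample depend on the reference genes only through the pseudocount. Against ANAC092 the mean log2 ratio at 18 d was 1.12 above that at 14 d (exact permutation test over samples, two-sided, adjusted p = 0.0044 over 9 comparisons). It was 1.24 above at 22 d (exact permutation, adjusted p = 0.0029) and 0.68 above at 26 d (exact permutation, adjusted p = 0.033). Samples overlapped: 2 of 8 at 18 d and 0 of 8 at 26 d lay above every sample at 14 d.

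Against ANAC100 the ratio was 2.05 above its 14 d level at 18 d (exact permutation, adjusted p = 4.1e-04), and all 8 samples lay above every sample at 14 d. Against ANAC079 it was 1.58 above at 18 d (exact permutation, adjusted p = 7.5e-04) and 0.82 above at 26 d (exact permutation, adjusted p = 0.036). When samples were permuted within letters, the 26 d difference was 0.63 against ANAC092 (exact permutation, adjusted p = 0.066) and 0.86 against ANAC079 (exact permutation, adjusted p = 0.059), neither called. No ratio was compared between genes as a level, since probes differ in how well they bind.

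**Figure D3:**
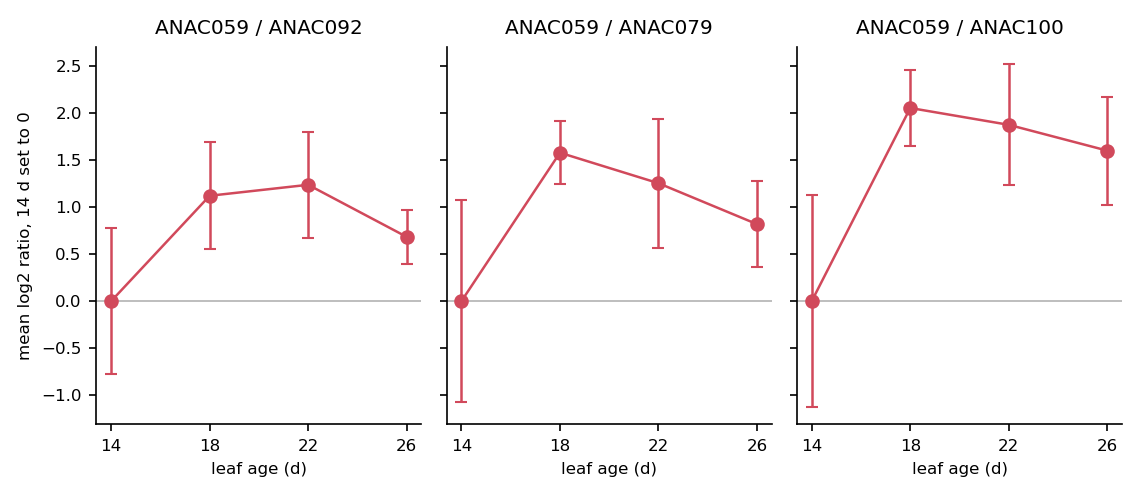
Mean log2 ratio of ANAC059 to ANAC092, ANAC079 and ANAC100 within wild-type samples (y axis, with the 14 d mean set to 0) against leaf age in days (x axis); bars are the SD over 10 samples at 14 d and 8 at the others. Each mean ratio lies above its 14 d value at 18 d, by 1.12, 1.58 and 2.05, and at 26 d, by 0.68, 0.82 and 1.60.

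Patterns like that of ANAC059 were sought over the 34 wild-type samples, each gene centred on its mean. The smallest root mean square differences, on the log2 scale, were those of ANAC046 (0.63), ANAC056 (0.74), ANAC092 (0.75), ANAC055 (0.76) and ANAC048 (0.79). ANAC046 is known to promote chlorophyll breakdown, and ANAC056 is known from seed coat development. The sample D2 decided part of this list: without it the first 5 were ANAC056 (0.47), ANAC046 (0.49), ANAC048 (0.65), ANAC021 (0.68) and ANAC079 (0.69).

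Within an age the samples of the genotypes gave another view, with anac059 and the line named after the compared gene left out. It was described by Pearson correlations over 102 to 106 samples. Each log2 value was taken less the mean of the samples of its letter and age, and the values share their reference genes. ANAC083, known as VNI2, had the highest median over the 4 ages (r = 0.60, from 0.54 to 0.67, median Spearman rho 0.58). ANAC092 followed (r = 0.57, from 0.46 to 0.67, rho 0.51), then ANAC029 (0.49), ANAC046 (0.48) and ANAC055 (0.46). For ANAC046 the correlation fell from 0.72 at 14 d to -0.10 at 26 d. The lowest medians were those of ANAC090 (-0.35), ANAC061 (-0.24) and the xylem gene ANAC104 (-0.24). At 26 d ANAC061 reached -0.67 and ANAC090 -0.58. Over all genes the median was 0.023.

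The line labelled anac059 carries the clearest difference. Its samples held 1175 and 1515 normalised ANAC059 counts at 14 d, against 627 and 448 in wild type of letter B. At 18 d they held 1153 and 1433, against 1130.3 and 865, and at 22 d 1302 and 1593, against 1757 and 1540.5. At 26 d they held 855 and 799, against 1655 and 1367. Both samples thus lay above wild type at 14 and 18 d, overlapped it at 22 d and lay below it at 26 d. The level of the line stayed in a band from 799 to 1593 while wild type of its letter climbed.

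At 14 d ANAC059 was higher in the line (log2 1.62, SE 0.36, edgeR adjusted p = 6.8e-06 over 188 tests of lines' own target genes). Of those 188 tests, over all lines, 17.6% were called higher and 42.0% lower. Without anac092 in the fit, which leaves the letter to wild type alone, it was 1.32 (edgeR adjusted p = 0.0016). At 18 d the difference was 0.29 (adjusted p = 0.497), at 22 d -0.07 (adjusted p = 0.861) and at 26 d -0.76 (95% interval -1.47 to -0.06, edgeR adjusted p = 0.061). At 26 d the call depended on the fit, since it passed without anac092 in the fit (-0.87, adjusted p = 0.042), with TMM (-0.96, adjusted p = 0.020) and with a fit of that age alone (-0.76, adjusted p = 0.0071). The change of the difference from 14 to 26 d was -2.38 (SE 0.51, edgeR adjusted p = 6.0e-05), where 10.6% of 47 own-target changes were called higher and 17.0% lower, and it ranked 3 from the lowest. Without the second sample of every line that change was -2.05 (edgeR adjusted p = 0.101).

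The line also stood outside the other genotypes at both ends. At 14 d both its samples lay above all 108 other samples, which ran from 34.9 to 860, and at 26 d both lay below all 106 others, which ran from 1047 to 2854. Its own mean log2 change was -0.06 from 14 to 18 d and -0.70 from 14 to 26 d. In the other 48 lines the change to 18 d ran from 0.60 in anac010 to 2.98 in anac002, with a median of 1.71, and the change to 26 d from 1.57 in at3g12910 to 3.54 in anac057, with a median of 2.32. In 47 of these lines every 18 d sample lay above every 14 d sample, the exception being anac081 with 1 of 2, and at 26 d this held in all 48. No such count is given here for the other genes. In wild type 25.5% of the 47 tested genes were called risen by 18 d and 12.8% fallen. By 26 d these shares were 83.0% and 14.9%. How far the separation in the lines is particular to ANAC059 was not tested.

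Without the position of the insertion and of the probe, the level of ANAC059 in this line neither checks nor contradicts its label. None of the other 46 genes was called in anac059 at any age with edgeR, and at an unadjusted p under 0.05 the number was 0 at 14 d, 1 at 18 d, 0 at 22 d and 1 at 26 d. Over all 2256 pairs of line and gene 1.42%, 0.222%, 0.133% and 0.355% were called at the successive ages. Unadjusted, 6.91%, 4.65%, 3.81% and 5.63% of pairs passed. The absence of calls is therefore not particular to this line.

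**Figure D4:**
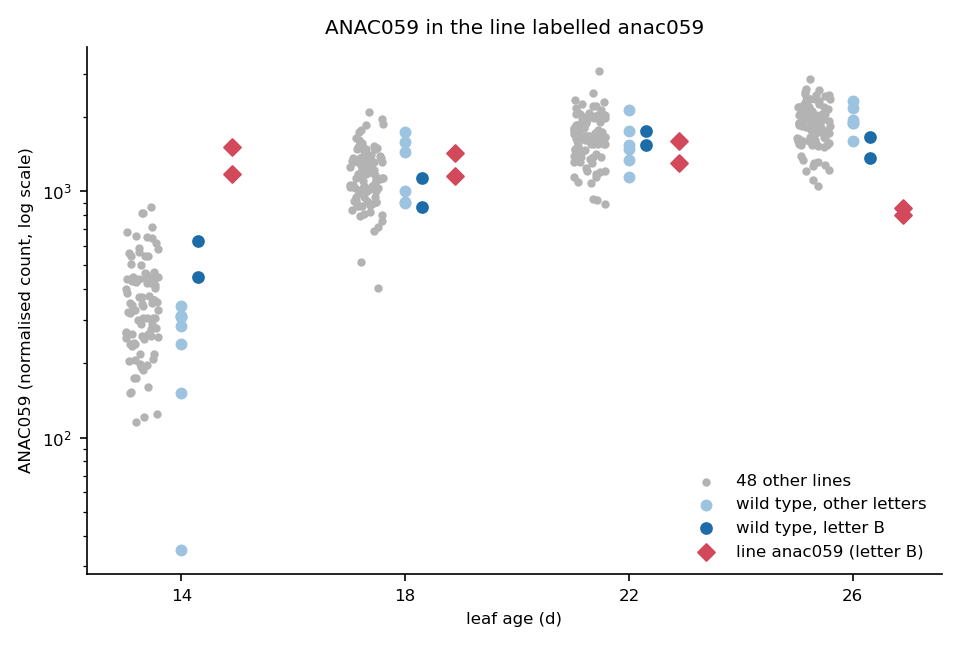
Normalised ANAC059 counts on a log scale (y axis) against leaf age in days (x axis) in the line labelled anac059 (red diamonds), wild type of letter B (dark blue), wild type of the other letters (light blue) and the 48 other lines (grey). The red points lie above all others at 14 d (1175 and 1515) and below all others at 26 d (855 and 799).

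In the other 48 lines ANAC059 mostly stayed near wild type. At 14 d 1 line, anac035, was called, and at 18, 22 and 26 d, for the mean over ages and for the change with age, 0 lines were called with edgeR (adjusted over 2256 pairs of line and gene). Over all pairs 1.42% were called at 14 d (0.399% higher, 1.02% lower), 0.222% at 18 d (0.133% higher, 0.0887% lower), 0.133% at 22 d (0.0443% higher, 0.0887% lower), 0.355% at 26 d (0.266% higher, 0.0887% lower), 1.15% for the mean (0.887% higher, 0.266% lower) and 0.133% for the change (0.0887% higher, 0.0443% lower). At an unadjusted p under 0.05 there were 12 of 48 lines at 14 d (25%, against 6.91% of all pairs of line and gene), 0 at 18 d, 1 at 22 d and 0 at 26 d (4.65%, 3.81% and 5.63% of all pairs). DESeq2 called 0 lines at every age, and limma on the authors' log2 values called 3 at 14 d (anac035, anac084 and ntl9). These 3 lines all stood under letter D and share its wild-type samples, of which D2 is 1. The fit could miss sizeable changes: in simulated counts for lines at 14 d over 47 genes, 32 of 100 changes of 1 log2 unit and 82 of 100 of 2 log2 units were recovered. Of 120 calls there, 6 were false. The simulation gave every gene the same dispersion and no letter differences, so it does not give the recovery for ANAC059 itself. The pooled SD of ANAC059 at 14 d was 0.65 log2 units, against 0.36 for the median gene.

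ANAC035 is the LOV1 gene, known from flowering and cold responses. The 2 samples of anac035 held 661 and 401 normalised ANAC059 counts at 14 d, against 310.5 and 34.9 in wild type of letter D. Both lay above both wild-type samples, of which the lower is D2 (log2 1.61, SE 0.39, edgeR adjusted p = 0.013). Without D2 the difference was 0.77 and not called (adjusted p = 0.918), and without D1 it was 3.93. At 26 d the samples held 2441 and 1271, on either side of wild type (2326 and 1901).

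Several lines at 14 d had large estimates that did not pass the test as designed, and not all of them are listed here. In anac084 the samples held 385 and 344 normalised counts, against 310.5 and 34.9 (D2) in wild type of letter D. Its log2 difference was 1.07 (edgeR adjusted p = 0.248), and it was called with limma. In anac076, named after the xylem gene VND2, the samples held 819 and 616 normalised counts, and wild type of letter C held 313 and 284 (log2 1.27, adjusted p = 0.074). In at3g12910 they held 815 and 565 (1.21, adjusted p = 0.101). In anac002, named after ATAF1, they held 125 and 152 against 152 to 343 in letter A (-1.08, adjusted p = 0.101). In anac014, named after a membrane-tethered NAC gene, they held 200 and 234 against 627 and 448 in letter B (-1.01, adjusted p = 0.212; -1.31, adjusted p = 0.059, without anac092 in the fit). In anac046 the samples held 263 and 239 (-0.80, adjusted p = 0.499), and in anac018 250.5 and 324 (-0.60, adjusted p = 0.911). Neither sample fell within the wild-type range of the letter in each of these lines except anac002, whose higher sample reached the lowest wild-type value.

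Later differences were smaller and none passed the test. At 18 d anac035 (0.47), anac076 (0.40) and anac052 (0.38) had the largest rises with no overlap, and anac002 (-0.52), anac029 (-0.52) and anac019 (-0.44) the largest falls. At 22 d anac029 held 3079 and 1893 normalised ANAC059 counts against 1141 and 1543 (log2 0.76, 95% interval 0.05 to 1.46), and anac052 2212 and 2337 against 1757 and 1540.5 (0.59). In anac047 the rise was 0.32, and the falls without overlap were -0.37 in anac021 and -0.08 in anac061. At 26 d anac056 (0.44), anac018 (0.43) and anac014 (0.40) stood highest without overlap and anac079 (-0.31) lowest.

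Lines whose samples all lay beyond wild type of their letter numbered 9 above and 9 below at 14 d, of 48, or 18.8% each, where 10.8% and 16.3% of all pairs did so. At 18 d they numbered 6 above and 11 below (23.7% and 9.0% of all pairs), at 22 d 5 and 2 (13.6% and 11.7%) and at 26 d 9 and 1 (14.8% and 12.6%). Lines of a letter share their wild-type samples, so these counts are not independent. Under letter C at 14 d 8 of 8 lines had a mean above wild type, and under letter B at 26 d 15 of 17 did. Under letter B at 14 d 2 of 17 did, and under letter A 3 of 17 at 18 d and 16 of 17 at 22 d. The lines wholly below wild type at 14 d all stood under letter B, and those at 18 d all under letter A.

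The spread between lines fell after 14 d together with the spread between replicates. The SD of the 48 line differences was 0.58 log2 units at 14 d and 0.25, 0.23 and 0.22 later, and the pooled SD between samples of a group was 0.65 and then 0.33, 0.31 and 0.29. The log2 line differences ran from -1.08 to 1.61 at 14 d and from -0.33 to 0.54 at 26 d. Over 426 samples, with the line anac059 left out, age accounted for 82.7% of the variance of the log2 ANAC059 value. Line within letter accounted for 7.66%, the letter for 2.83% and samples within a group for 6.78%. The line share was not tested against that within groups. The median gene had 60.9% for age and 15.5% for line, and ANAC092 had 52.6% for age.

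**Figure D5:**
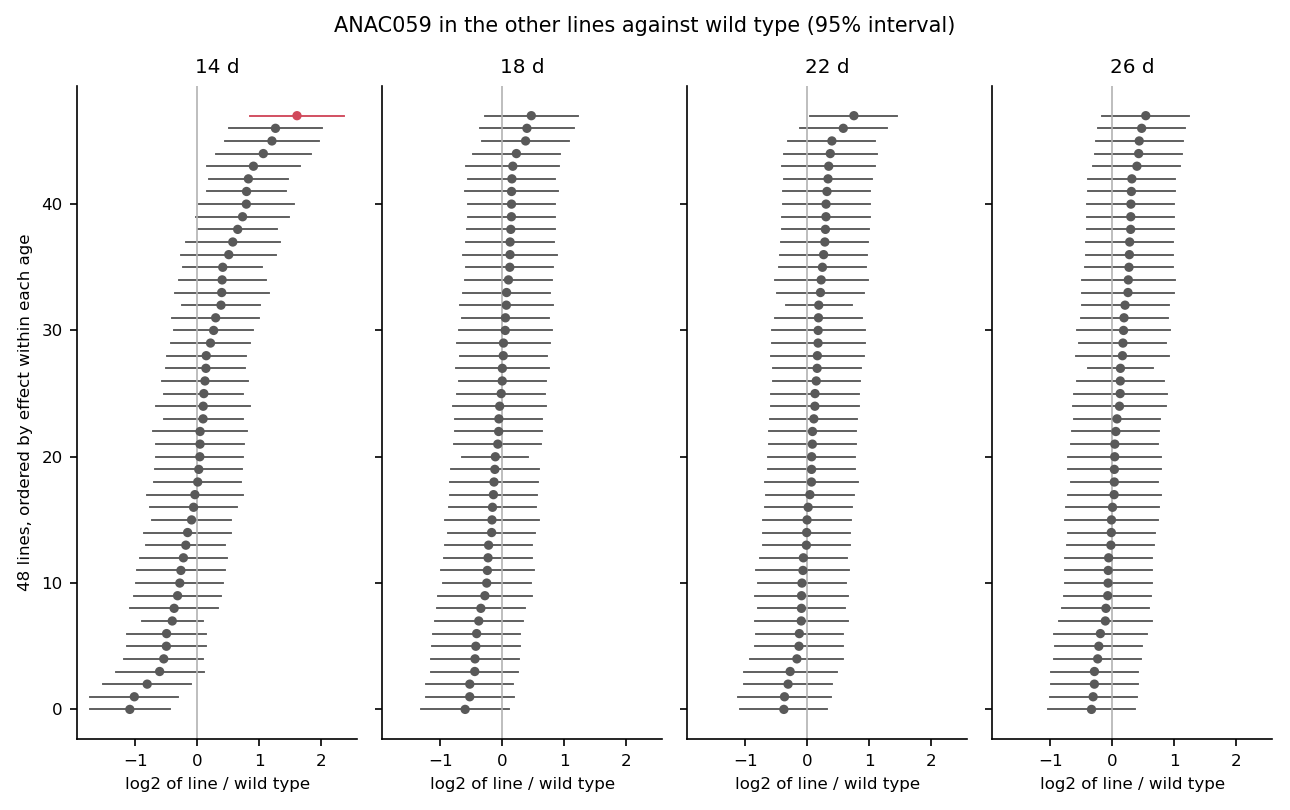
Log2 difference in ANAC059 between each of 48 lines and wild type (x axis) at 14, 18, 22 and 26 d, lines ordered by their difference within each age (y axis); points are edgeR estimates, bars 95% intervals, and red marks an adjusted p under 0.05. Estimates run from -1.08 to 1.61 at 14 d, where 1 line (anac035) is red, and from -0.33 to 0.54 at 26 d.

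The lines named after the closest relatives gave no called ANAC059 difference, but of these 3 lines only anac079 had its own target called lower. ANAC092 in anac092 differed from wild type by -0.62, -0.35, -0.19 and -0.53 at the successive ages (log2, edgeR adjusted p from 0.221 to 0.730) and ANAC100 in anac100 by -0.15 to 0.41, none called, whereas ANAC079 in anac079 was called lower at each age (-2.51 to -4.49). The anac092 samples held 174, 372, 204 and 307 normalised ANAC059 counts at 14 d and 2494, 2064, 1799 and 1047 at 26 d, against 152 to 627 and 1367 to 1954 in wild type of letters A and B. The groups overlapped at both ages, with a log2 difference of -0.40 at 14 d (95% interval -0.90 to 0.10, adjusted p = 0.936) and 0.14 at 26 d (95% interval -0.39 to 0.67, adjusted p = 0.999). In anac079 and anac100 the difference at 14 d was 0.39 and -0.18. Of the 12 lines of senescence-promoting genes 0 were called, with a median of 0.10 at 14 d and -0.03 at 26 d, against 0.10 and 0.10 over all lines. At 18 d their median was -0.38, with 9 of 12 below wild type, against -0.04 and 26 of 48 over all lines. At 22 d their median was 0.10 against 0.12. Most of these lines stood under letter A, where wild type was highest at 18 d, and the part of that level was not tested. The 7 lines of vascular genes had a median of 0.10 at 14 d and 0.13 at 26 d, and the 3 of the trio 0.58 and -0.07, with none called by edgeR.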

How the data were processed

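The deposited raw counts per probe, per the file headers one table for each leaf age, were used as they stood. The sources used here do not name the counting software. A table of log2 values deposited by the authors was used only in 1 alternative. ANAC059 was found by its locus; 53 gene probes matched RefSeq (TAIR10.1), used for names only. The model was edgeR's (version 4.0.16, R 4.3.3), with a mean per genotype and age with the letter within age, and the reference mean as offset. Genes with a mean raw count above 12.6 (negative probes, 5.19 plus 2 SD of 3.71) were tested, which left 47 of 49. P-values were adjusted over 47 genes between wild-type ages, over 188 own-target tests and over 2256 pairs for other lines. Log2 ratios, with a pseudocount of 1, were tested by exact permutation over samples (43758 arrangements). Of 345 replicate pairs 0 were identical and 0 within sampling noise. The script was tested on simulated data. Other settings were TMM, DESeq2 1.42.0 (fitted within each age, since its dispersions failed over all samples), limma 3.58.1, other references, other filters, no letter, a replicate block and left-out samples; positive control scaling and a fit without anac092 were added after seeing the data. Lines named were those called, the 3 largest rises and falls per age without overlap, anac059 and list members; anac010, anac057 and anac081 were named as extremes after their values were seen. The genes most like ANAC059 were the 5 nearest. The gene and lists were chosen with earlier results of these data known.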

Additional observations from a re-analysis of the deposited data

Results flagged for a closer look

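The wild-type sample D2 at 14 d lay far below the other 9 on the log2 scale, at 5.17 log2 normalised ANAC059 counts (34.9 normalised counts), with a gap to the next sample that was 0.507 of the group's range against a critical value of 0.466. On the linear scale it did not stand apart by this measure (0.198). 8 groups were examined in this way on 2 scales, and chance alone marks about 1 group in 20. The wild-type mean at 14 d was 336 ± 135 (SD, n = 9) without it.

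ANAC059 in the line labelled anac059 moved from above wild type at 14 d to below it at 26 d, a change in the log2 difference of -2.38 (edgeR adjusted p = 6.0e-05). Both samples lay above both wild-type samples of the letter at 14 d and below both at 26 d.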

How the results depend on the processing

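The wild-type rises from 14 d kept direction and call under all alternatives run. The 18 d rise was 1.17 with positive control probes, the smallest, and 1.82 to 2.61 when 1 sample, or 1 sample of every line, was left out. The change from 18 to 22 d was -0.00167 with TMM and -0.0451 with DESeq2, and 0.36 to 0.54 with samples left out, where 9 of 36 fits lost the call; from 22 to 26 d DESeq2 gave -0.0393. With the replicate block (letter and number within age), 6 lines were called at 14 d (anac002 -1.46, anac014 -1.16, anac035 1.71, anac076 1.23, anac084 1.21 and at3g12910 1.16) and 1 for the change (anac035), and anac059 at 26 d was called (-0.75). Samples of the same number deviated together weakly (median r 0.23, from -0.02 to 0.57 over sets of letter and age), so the number was not taken as a pairing. For anac059 at 26 d, TMM gave -0.96, no letter covariate -1.17, a fit per age -0.76 and a fit without anac092, added after seeing the data, -0.87, each called; its change with age was -3.31 without the letter and -2.19 without anac092, both called. Without anac092 the lines called were 1 at 14 d and 0 otherwise. With samples left out, anac059 ran from -0.81 to -0.61 at 26 d, from -0.24 to 0.07 at 22 d, and from -2.71 to -2.05 for the change, the last not called. Lines called at 14 d numbered 0 without UBQ10, with positive controls, per age and with DESeq2, 2 without the letter and 3 with limma. For the mean, 1 line was called without the letter and 1 with limma, and for the change 1 with limma. With samples left out they numbered 0 to 6 at 14 d, 0 to 3 for the mean and 0 to 4 for the change; the highest counts came without wild-type D1, and without D2 0 were called at 14 d. Uncalled lines changed sign: anac014 at 26 d to -0.00531 without the letter, anac018 at 14 d to 0.032 with TMM and 0.00507 with DESeq2, anac052 at 18 d to -0.0586 with positive controls, anac079 at 26 d to 0.0255 with the geometric mean and 0.0885 without UBQ10, and anac061 at 22 d to 0.0510 without wild-type B1 (-0.19 to 0.05 with samples left out). Without B1 anac059 at 22 d was 0.0665, and without the first sample of every line 0.0167. The 26 d ratio to ANAC079 was 0.68 after subtracting the negative probes and 0.86 within letters, and that to ANAC092 0.63 within letters, none called; with samples left out they ran from 0.52 to 0.96 and from 0.53 to 0.84. The cause of these differences was not tested. A lone sample left in a group was assumed to vary like the others.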
